A study of Homo sapiens with 12 samples.

Results

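RTEL1 and TNFRSF6B are neighbors on the long arm of chromosome 20, within a row of genes that runs from STMN3 through RTEL1, TNFRSF6B, ARFRP1, ZGPAT and LIME1 to SLC2A4RG. All non-control probes that carry 1 of these 7 gene names in the scanner output were taken, ordered by their position on hg19. This gave 11 probes of 7 genes, out of 50599 probes with 36337 gene names on the array. All 11 passed the filter on dim probes, which asks for a signal clearly over background on 3 arrays or more, as did 33714 probes in all. The neighborhood was chosen by the low values of RTEL1 and TNFRSF6B after LNA-miR-197 against both controls on these same arrays, so the ratios of LNA-miR-197 to its controls are given as a description with no test.

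Messenger RNA was measured on 12 Agilent arrays in 3 human lines of lung adenocarcinoma: A549, PC14 and its cisplatin-resistant derivative PC14CDDP. Each was transfected 4 ways with the DharmaFECT reagent at 25 nM. These were pre-miR-197, a precursor that supplies miR-197, NC, a negative control that the labels also call AllStar-NC, LNA-miR-197, a locked nucleic acid oligonucleotide against the miRNA, and LNA-miR-NC, its control. Each transfection of a line has 1 array, hybridized with material from 100 ng of total RNA, so that the 3 lines are the replicates of a transfection and the 4 transfections are cultures of 1 line. No source names separate cultures within a transfection, and p-values measure the spread between these arrays. A549 had slide 1 to itself, while PC14 and PC14CDDP shared slide 2, with PC14 in row 1 and PC14CDDP in row 2. Every transfection took the same column of the slide in each line, so slide column and transfection cannot be told apart.

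The keratin genes KRT8, KRT18 and KRT19 were well above background on every array. The epithelial genes EPCAM and CDH1 were so on all 4 arrays of A549, on 3 and 2 arrays of PC14 and on 0 of PC14CDDP, and the lung transcription factor NKX2-1 was so in PC14 and PC14CDDP and on 0 arrays of A549. Of the fibroblast genes, COL1A2, DCN and PDGFRB were above background on 0 arrays and COL1A1 on all 12, with mean signals of 385, 66.2 and 39.9 units in A549, PC14 and PC14CDDP. The leukocyte gene PTPRC was above it on all 12 arrays, with 77.5, 47.6 and 52.5 units. Between 55.8% and 63.1% of the probes were well above background per array, and 0 spots were saturated.

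RTEL1 encodes a DNA helicase that dismantles telomeric loops and other secondary structures during replication, and inherited defects in it shorten telomeres. TNFRSF6B encodes decoy receptor 3, a secreted protein without a membrane anchor that binds FAS ligand, TNFSF14 and TNFSF15 and keeps them from their receptors, and it is known for extra gene copies in lung and colon tumors. Transcripts that start at RTEL1 can run on into TNFRSF6B, and RefSeq lists such a readthrough as RTEL1-TNFRSF6B, a noncoding RNA. Of the other genes, ARFRP1 encodes a small GTPase of the trans-Golgi, STMN3 a stathmin that destabilizes microtubules, ZGPAT a zinc finger repressor of transcription, LIME1 an adaptor that binds LCK, and SLC2A4RG a regulator of the glucose transporter gene SLC2A4.

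In RefSeq on GRCh38.p14, RTEL1 lies at chr20:63657810-63696253 and TNFRSF6B at chr20:63696652-63698684, both on the plus strand, with 398 bases between them. ARFRP1, at chr20:63698647-63707976, is read from the other strand and shares its last 38 bases with the end of TNFRSF6B. STMN3 lies before RTEL1 and is also on the minus strand, while ZGPAT, LIME1 and SLC2A4RG follow on the plus strand. The probes are placed on hg19 by the files and span 102.89 kb, from STMN3 at chr20:62271944-62272003 to SLC2A4RG at chr20:62374774-62374833. No annotation of hg19 was used, so exons and untranslated regions under the probes are not named. The RTEL1 probe lies at chr20:62327408-62327467, TNFRSF6B probe 1 at chr20:62328352-62328411 and TNFRSF6B probe 2 at chr20:62328874-62329690, which is longer than its 60 bases and so crosses a splice junction. The gap from the RTEL1 probe to TNFRSF6B probe 1 is 884 bases, and that from TNFRSF6B probe 2 to the nearest ARFRP1 probe is 316 bases. Both TNFRSF6B probes are listed for TNFRSF6B's own transcript, while the readthrough in RefSeq, at chr20:63657810-63698698, covers the whole of TNFRSF6B. Signal from TNFRSF6B's own transcript and from the readthrough was therefore not told apart.

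The sequences below are those the comparison turns on: the mature arms of the transfected miRNA, from RefSeq, with the seed (bases 2 to 8) in capitals, and the array's letters for RTEL1, for both TNFRSF6B probes and for the ARFRP1 probe next to them on the other strand. For RTEL1 and ARFRP1 the last 30 of the 60 bases are shown.
hsa-miR-197-3p: uUCACCACcuucuccacccagc
hsa-miR-197-5p: cGGGUAGAgagggcagugggagg
RTEL1: ggaaagtgcttccccagaacttccctggct
TNFRSF6B probe 1: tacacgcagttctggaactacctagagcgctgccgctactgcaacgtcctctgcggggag
TNFRSF6B probe 2: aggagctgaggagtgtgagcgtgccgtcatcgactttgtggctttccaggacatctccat
ARFRP1 probe 1: tttatgaaaaagctttataaaaataagctt
Neither the seed letters of miR-197-3p, TCACCAC, nor their complement, GTGGTGA, occur in any of the 11 probes (0 of 11). Over all 50599 probes they occur in 0.419% and 0.510%, so 0 of 11 says little. The transcripts outside the probe letters were not searched for the seed. The sequence of the LNA oligonucleotide was not used here.

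RTEL1 was well above background on all 12 arrays, so its ratios were measured on both sides. Its level, the log2 of the processed signal minus that of the array's 75th percentile, was 1.03 after pre-miR-197, 0.61 after NC, -1.45 after LNA-miR-197 and 1.05 after LNA-miR-NC in A549. In PC14 the same levels were 2.26, 2.03, 0.32 and 2.41. In PC14CDDP they were 2.47, 2.52, 0.41 and 2.81. The array of LNA-miR-197 was the lowest of the 4 in 3 of 3 lines, and the other 3 arrays of a line lay close together, with SDs of 0.25, 0.19 and 0.18 in A549, PC14 and PC14CDDP. As log2 differences, LNA-miR-197 minus LNA-miR-NC was -2.50, -2.10 and -2.40 in A549, PC14 and PC14CDDP, a mean of -2.33 ± 0.21 (SD, n = 3) or 5.03-fold lower. Against NC the differences were -2.06, -1.72 and -2.11, a mean of -1.96 ± 0.21 (SD, n = 3) or 3.90-fold lower. Both comparisons share the LNA-miR-197 arrays.

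TNFRSF6B probe 2 shared with RTEL1 the low array of LNA-miR-197, while in A549 and PC14 the other arrays were in another order. In A549 its log2 level was -3.18 after pre-miR-197, -2.66 after NC, -5.48 after LNA-miR-197 and -2.99 after LNA-miR-NC. In PC14 the levels were -2.64, -2.25, -3.90 and -2.16, and in PC14CDDP they were -1.11, -1.07, -3.01 and -0.99. LNA-miR-197 was again the lowest array in 3 of 3 lines, outside the range of the other 3. In A549 it was not well above background, so the size of the ratio there is uncertain. As measured, LNA-miR-197 was 5.61-fold lower than LNA-miR-NC and 7.06-fold lower than NC. In PC14 it was 3.36-fold lower than LNA-miR-NC and 3.15-fold lower than NC, and in PC14CDDP 4.06-fold and 3.85-fold lower. This probe was dim, with signals between 10.5 and 225 units, and with normexp background correction and an offset of 50 its mean log2 ratio to LNA-miR-NC came to -0.96 in place of -2.09.

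TNFRSF6B probe 1 was dimmer and less even between lines. Its log2 levels were -3.74, -3.55, -4.28 and -3.63 after pre-miR-197, NC, LNA-miR-197 and LNA-miR-NC in A549, -4.04, -3.94, -4.24 and -3.89 in PC14, and -2.85, -3.02, -4.69 and -2.74 in PC14CDDP. The array of LNA-miR-197 was the lowest in 3 of 3 lines here too, and in PC14CDDP it was not well above background. LNA-miR-197 was 1.57-fold lower than LNA-miR-NC in A549, 1.27-fold lower in PC14 and, as measured, 3.85-fold lower in PC14CDDP. Against NC it was 1.66-fold, 1.23-fold and, as measured, 3.17-fold lower. The size of the PC14CDDP ratios is uncertain. Over the alternative settings the mean log2 ratio of the probe to LNA-miR-NC lay between -1.30 and -0.32. The signals of this probe lay between 15.7 and 66.8 units, and the probes of TNFRSF6B therefore differ in the size of the ratio in A549 and PC14 while they have the same sign.

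**Figure D1:**
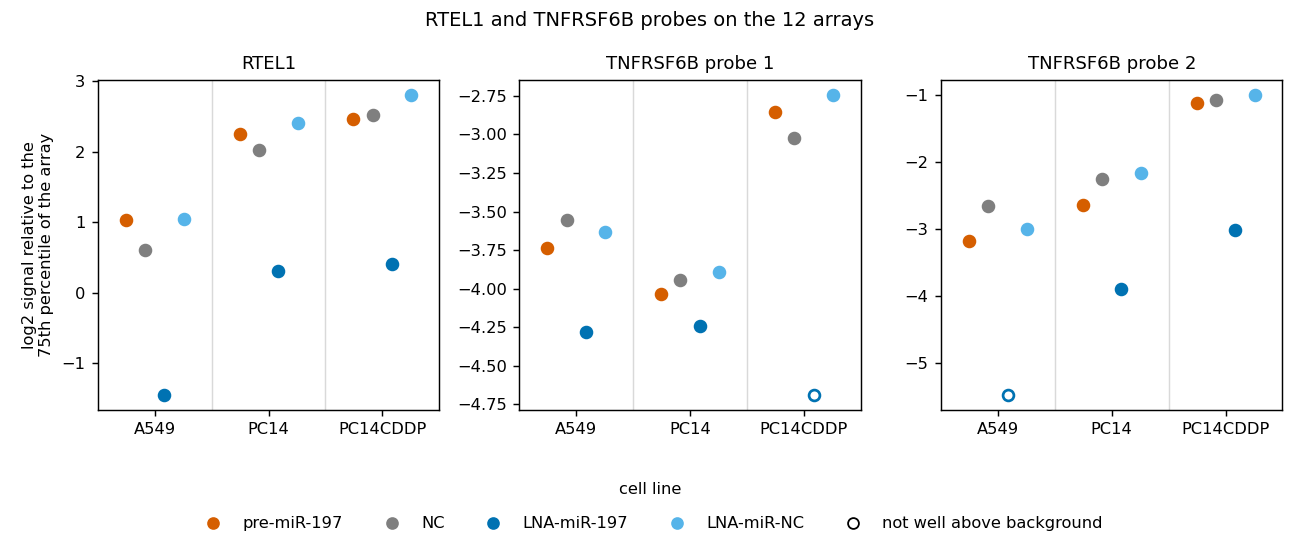
The log2 signal over the array's 75th percentile (vertical axis, with a scale of its own in each panel) is plotted for the RTEL1 probe and TNFRSF6B probes 1 and 2 in each cell line. Each point is 1 array, colored by transfection, and an open point was not well above background. The LNA-miR-197 point is the lowest of the 4 in each of the 3 lines on all 3 probes.

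Over all 33714 probes, 7.63% were at least 1.2-fold lower than LNA-miR-NC in all 3 lines and 7.77% were at least 1.2-fold higher. Of the 11 probes of the neighborhood 3 were lower, the RTEL1 probe and both TNFRSF6B probes, and 0 were higher. Against NC, 10.6% of all probes were lower and 8.43% higher by this measure, and of the 11 probes 4 were lower, with SLC2A4RG added, and ZGPAT was higher. Against both controls at once, 3.93% of all probes were lower and 4.40% higher, and 3 and 0 of the 11. At 3-fold or more against both controls in all 3 lines, 2 of the 33714 probes were lower (0.00593%), the RTEL1 probe and TNFRSF6B probe 2. For TNFRSF6B probe 2 this rests in A549 on an array not well above background. At 2-fold or more there were 20 (0.0593%), with the same 2 of the neighborhood. These counts restate the values that led to the choice of the genes.

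The genes on either side gave other values. ARFRP1, whose end overlaps that of TNFRSF6B, has 4 probes, at chr20:62330007-62330066, chr20:62330844-62330903, chr20:62332543-62332602 and chr20:62337745-62338015 (probes 1 to 4). Their log2 ratios of LNA-miR-197 to LNA-miR-NC ranged from -0.33 to 0.28 over the probes and lines. ARFRP1 probe 1, the closest to TNFRSF6B, had ratios of -0.07, 0.21 and 0.18 in A549, PC14 and PC14CDDP. ARFRP1 probe 3 had 0.28, -0.33 and -0.19 in the same lines, which is not 1 direction. Against NC the 4 probes had mean log2 ratios of -0.01, -0.32, -0.23 and -0.31, and 0 of them reached 1.2-fold the same way in all lines. Probes 2, 3 and 4 lay below NC in every line, for example by -0.22, -0.18 and -0.52 on probe 4. LNA-miR-197 was the lowest array of probe 4 in 2 of 3 lines.

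STMN3, 55.4 kb before RTEL1, had log2 levels of -1.25, -1.03, -0.47 and -1.07 after pre-miR-197, NC, LNA-miR-197 and LNA-miR-NC in A549. In PC14 they were -0.58, 0.09, -0.30 and -0.14, and in PC14CDDP they were -2.18, -1.23, -1.25 and -1.16. The array of LNA-miR-197 was the highest in A549 and lay inside the range of the others in PC14 and PC14CDDP. Its log2 ratios to LNA-miR-NC were 0.60, -0.16 and -0.09 in the 3 lines.

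ZGPAT, at chr20:62367408-62367467, had its highest array after LNA-miR-197 in 3 of 3 lines. Its log2 levels after pre-miR-197, NC, LNA-miR-197 and LNA-miR-NC were 3.12, 2.99, 3.42 and 3.38 in A549, 3.59, 3.65, 4.06 and 3.79 in PC14, and 4.07, 4.11, 4.48 and 4.21 in PC14CDDP. Against NC the log2 ratio was 0.43, 0.42 and 0.36, a mean of 0.40 ± 0.04 (SD, n = 3). Against LNA-miR-NC it was smaller, at 0.03, 0.27 and 0.27. In A549 the arrays of LNA-miR-197 and LNA-miR-NC were nearly level and above both others.

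SLC2A4RG gave a graded order of arrays. Its log2 levels after pre-miR-197, NC, LNA-miR-NC and LNA-miR-197 were 6.21, 5.96, 5.64 and 5.60 in A549. The same order held in PC14, with 5.64, 5.28, 4.90 and 4.50, and in PC14CDDP, with 6.29, 5.71, 5.41 and 4.75. LNA-miR-197 was the lowest array in 3 of 3 lines, with log2 ratios to NC of -0.36, -0.79 and -0.96 and to LNA-miR-NC of -0.04, -0.40 and -0.66. LNA-miR-NC was itself lower than NC, by log2 ratios of -0.32, -0.38 and -0.30. LIME1, at chr20:62370066-62370125, had log2 ratios of LNA-miR-197 to LNA-miR-NC of -0.05, -0.07 and -0.24 and to NC of 0.00, 0.24 and 0.22, which in PC14 and PC14CDDP differ in sign with the control used.

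**Figure D2:**
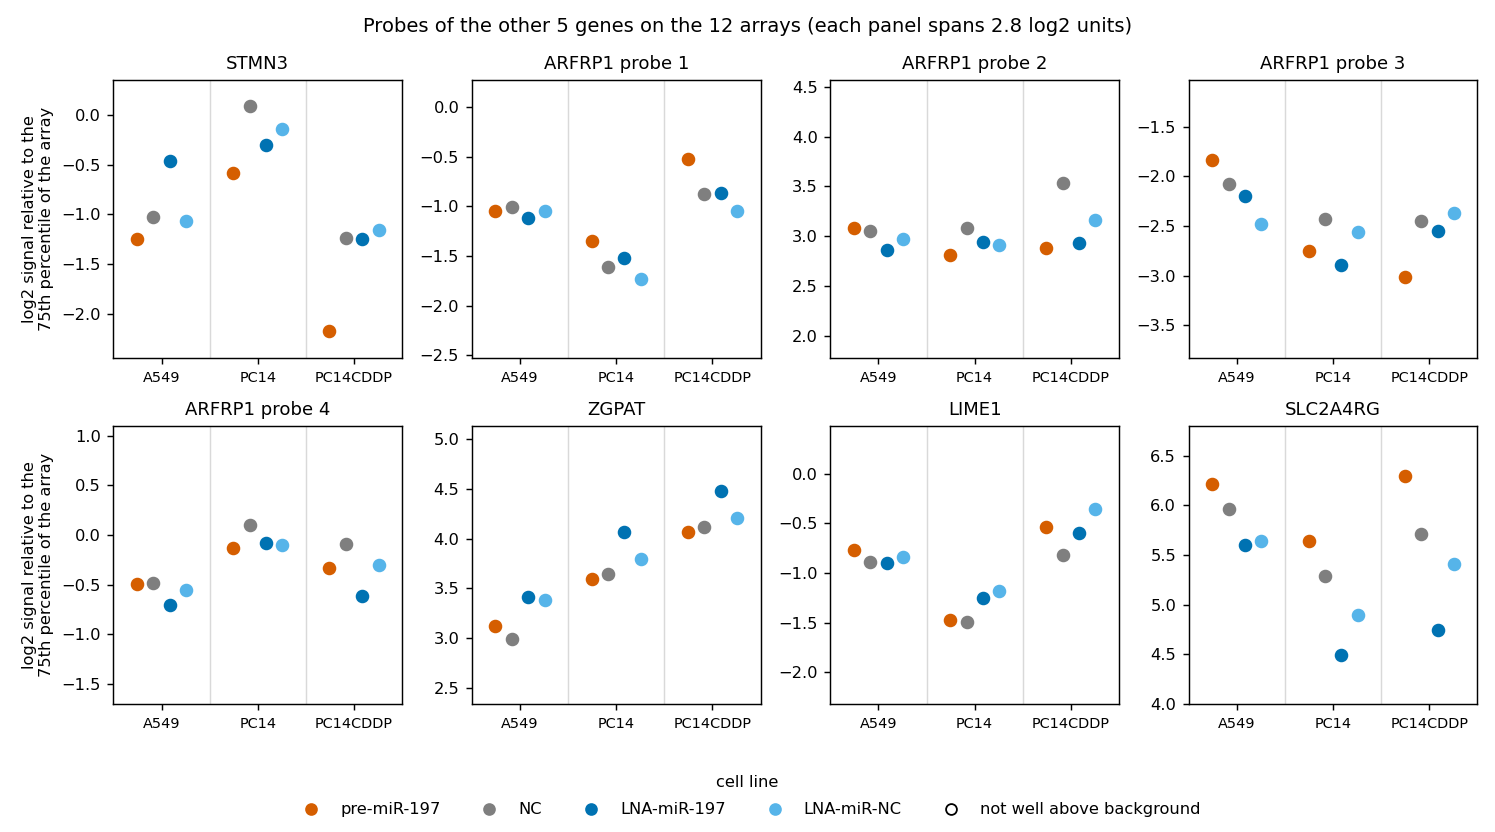
The log2 signal over the array's 75th percentile is plotted for the 8 probes of STMN3, ARFRP1, ZGPAT, LIME1 and SLC2A4RG by cell line, with the same colors for the transfections and the same length of axis (2.8 log2 units) in every panel. SLC2A4RG falls into the same order of transfections in all 3 lines, LNA-miR-197 is the highest array of ZGPAT in each line, and the LNA-miR-197 points of ARFRP1 probe 1 and LIME1 lie among or near the others.

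The controls were also set against each other. LNA-miR-NC was higher than NC on the RTEL1 probe by log2 ratios of 0.44, 0.38 and 0.29, a mean of 0.37 ± 0.08 (SD, n = 3), which is the reverse of the sign after LNA-miR-197. TNFRSF6B probe 2 had -0.33, 0.09 and 0.08 and TNFRSF6B probe 1 had -0.08, 0.05 and 0.28. At 1.2-fold in all 3 lines, RTEL1 was the member probe that was higher, beside 4.35% of all probes, and SLC2A4RG the one that was lower, beside 4.67%.

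Farther out, some probes lay below both controls in all 3 lines, but by less than 1.2-fold in at least 1 line. UCKL1, for example, had log2 ratios of -0.11, -0.39 and -0.91 to LNA-miR-NC and of -0.18, -0.25 and -0.78 to NC. Within 500 kb beyond the outermost probes, 47 other gene names had 73 probes, and 63 probes of 43 of them were tested. Of these 63, 0 were at least 1.2-fold lower after LNA-miR-197 than both controls in all 3 lines, and 2 were higher. Over all probes the shares were 3.93% and 4.40%, so 0 of 63 says little. Against NC alone 4 were lower and 4 higher, beside 10.6% and 8.43%. Against LNA-miR-NC alone 0 were lower and 4 higher, beside 7.63% and 7.77%. The lowest mean was that of a COL20A1 probe against NC, with log2 ratios of -0.89, -2.66 and -1.56. This probe was well above background on 4 of 12 arrays. The closest probes outside were those of the unnamed transcript XLOC_013615, at -67.3 kb from the RTEL1 probe, with log2 ratios to LNA-miR-NC of -0.22, 0.13 and 0.11 on its nearer probe, and ZBTB46, a zinc finger gene at 47.8 kb, with 0.10, -0.52 and -0.31. Of the 2 that were higher than both controls, 1 was a probe of YTHDF1, a reader of methylated adenosine in RNA, with 1.25, 1.68 and 2.12. The other was a probe of MYT1, a neural transcription factor, with 0.73, 0.54 and 0.58. YTHDF1 had 2 further probes and MYT1 1 more, and these did not reach this measure. The median of the mean log2 ratio to LNA-miR-NC was 0.04 over the 63 flanking probes and 0.00 over all probes tested.

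**Figure D3:**
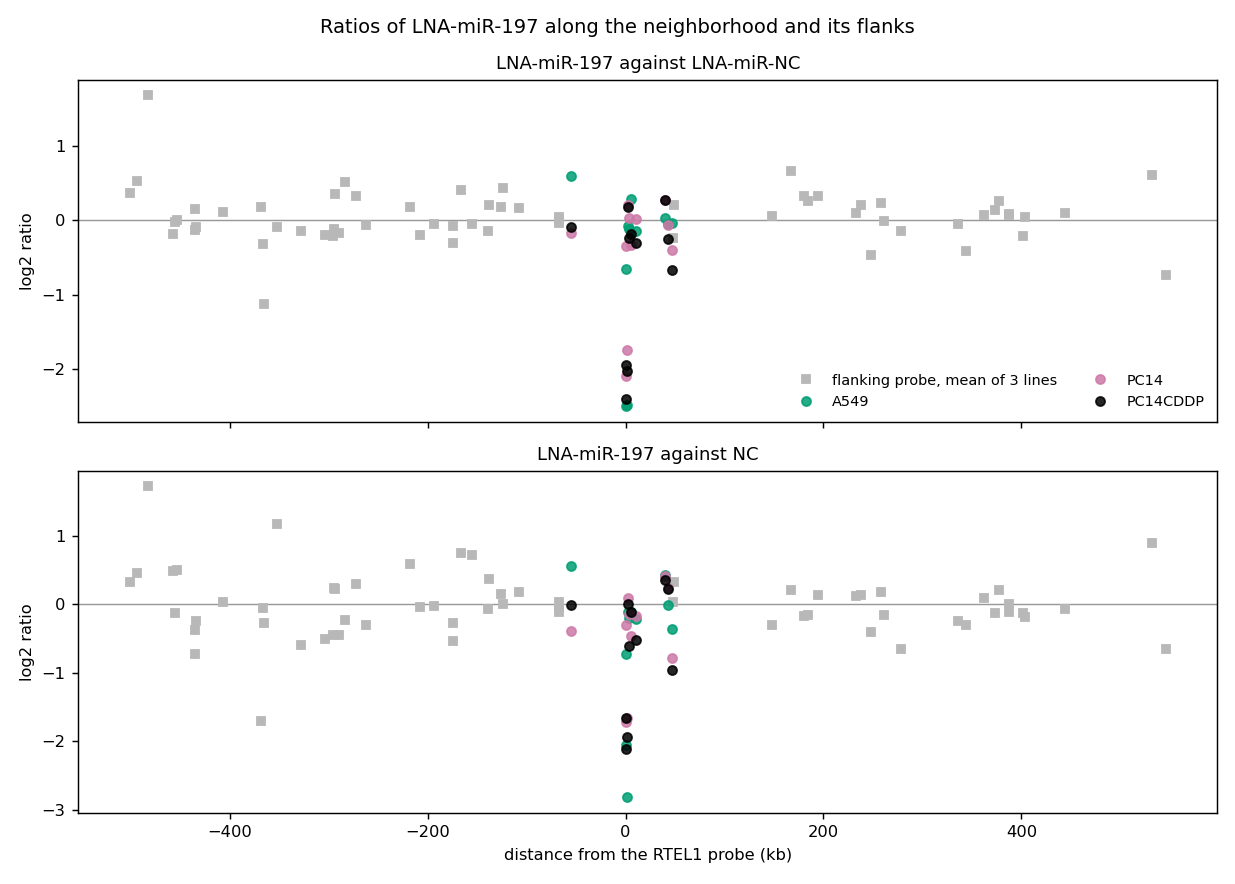
The log2 ratio of LNA-miR-197 to LNA-miR-NC (upper panel) and to NC (lower panel) is plotted against the distance of each probe from the RTEL1 probe in kb. Colored points are the 11 probes of the neighborhood, 1 point a cell line, and gray squares are flanking probes as the mean of the 3 lines. Points below -1.5 belong to the RTEL1 and TNFRSF6B probes in the upper panel, and the mean ratio to LNA-miR-NC of the lowest flanking probe, COL20A1, is -1.12. In the lower panel the lowest flanking mean, of another COL20A1 probe, is -1.70.

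Whether more miR-197 moved these genes was tested by pre-miR-197 against NC, whose pre-miR-197 arrays did not enter the choice of the genes. The NC arrays did, as 1 of the controls for LNA-miR-197. limma called 0 of the 11 probes at an adjusted p under 0.05, where 0.0593% of all probes were called (20 of 33714). At an unadjusted p under 0.05 there were 2 of 11, STMN3 and SLC2A4RG, beside 15.5% of all probes. RTEL1 had log2 ratios of 0.42, 0.22 and -0.05 in A549, PC14 and PC14CDDP, with an estimate of 0.20 ± 0.13 (SE, limma adjusted p = 0.502). TNFRSF6B probe 2 had -0.52, -0.39 and -0.04, with an estimate of -0.32 ± 0.21 (SE, limma adjusted p = 0.513), and TNFRSF6B probe 1 had -0.19, -0.10 and 0.17 (limma adjusted p = 0.968). The SD between lines was 0.24 for RTEL1 and 0.25 for TNFRSF6B probe 2, which was below 0 in 3 of 3 lines. The estimates of RTEL1 and TNFRSF6B probe 2 had opposite signs, and neither probe passed the test.

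The largest estimate after pre-miR-197 was that of STMN3. Its log2 ratios were -0.22, -0.67 and -0.94, below 0 in 3 of 3 lines, with an estimate of -0.61 ± 0.20 (SE, limma adjusted p = 0.219). SLC2A4RG had 0.26, 0.35 and 0.58, above 0 in 3 of 3 lines, with an estimate of 0.40 ± 0.16 (SE, limma adjusted p = 0.284). The adjusted p of the ARFRP1, ZGPAT and LIME1 probes lay between 0.346 and 0.975 in limma. ARFRP1 probes 2 and 3 were above 0 in A549 and below 0 in PC14 and PC14CDDP. The median log2 ratio of the 11 probes was 0.04, -0.10 and -0.05 in A549, PC14 and PC14CDDP, beside 0.02, 0.00 and 0.03 over all probes.

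**Figure D4:**
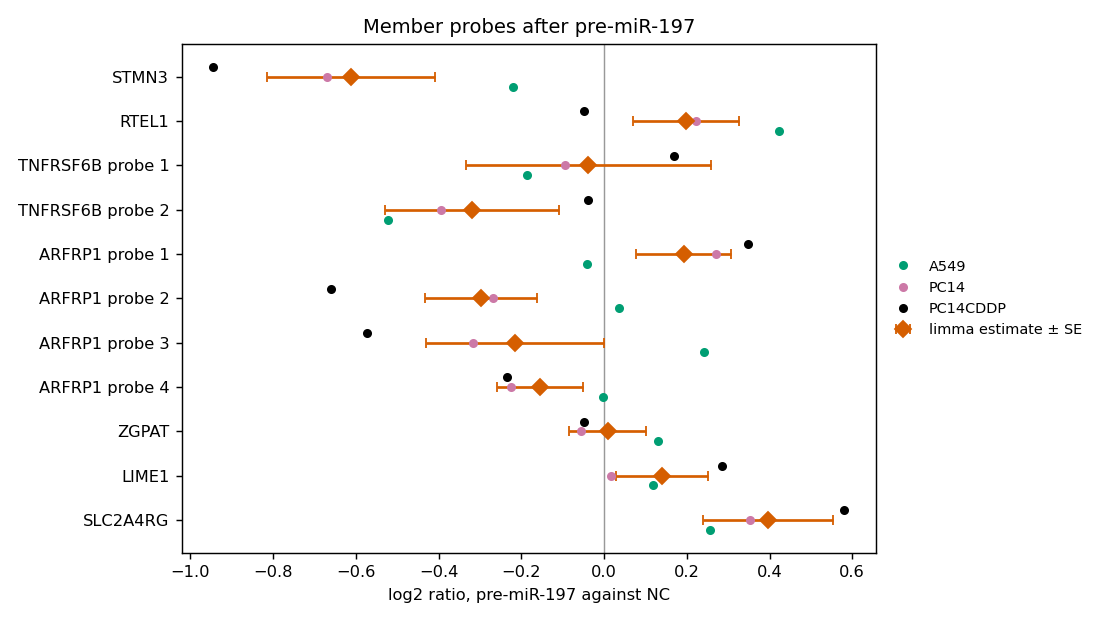
The log2 ratio of pre-miR-197 to NC (horizontal axis) is plotted for the 11 probes in the order of their position. Dots are the 3 cell lines and diamonds the limma estimates with their standard errors. The STMN3 dots all lie below 0 and the SLC2A4RG dots all lie above 0, and no probe was called.

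The levels of the genes were compared between the lines, in the same limma fit with the transfection as a term. Between PC14CDDP and PC14, 26.0% of all probes were called higher and 22.8% lower, and of the 11 probes 5 were called higher and 2 lower. TNFRSF6B probe 2 rose in PC14CDDP by a log2 difference of 1.19 ± 0.18 (SE, limma adjusted p = 0.000873), or 2.28-fold, with all 4 transfections above 0. Without the LNA-miR-197 arrays the difference was 1.29 (limma adjusted p = 0.000778). TNFRSF6B probe 1 had 0.70 (limma adjusted p = 0.0522), with the LNA-miR-197 array the lone one below 0, and 1.08 without the LNA-miR-197 arrays (limma adjusted p = 0.000624). RTEL1 had 0.30 ± 0.11 (SE, limma adjusted p = 0.0540), with 4 of 4 transfections above 0, and 0.37 without the LNA-miR-197 arrays (limma adjusted p = 0.0376).

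STMN3 fell by 1.22 ± 0.18 (SE, limma adjusted p = 0.000632) on the log2 scale in PC14CDDP, or 2.33-fold, in 4 of 4 transfections. LIME1 rose by 0.77 (limma adjusted p = 0.000307), ZGPAT by 0.44 (limma adjusted p = 0.00221) and SLC2A4RG by 0.46 (limma adjusted p = 0.0222). The call of SLC2A4RG was lost with quantile normalization (0.36, limma adjusted p = 0.0888), without the pre-miR-197 arrays (0.40, limma adjusted p = 0.0768), without the NC arrays (0.47, limma adjusted p = 0.0870) and without the LNA-miR-NC arrays (0.45, limma adjusted p = 0.0967). The ARFRP1 probes did not move as 1 gene: probe 1 rose by 0.73 (limma adjusted p = 0.000469), probe 4 fell by 0.28 (limma adjusted p = 0.0304), and probes 2 and 3 had 0.19 and 0.07 (limma adjusted p = 0.210 and 0.798). The call of ARFRP1 probe 4 was lost when any of the 4 transfections was left out (limma adjusted p between 0.0703 and 0.116), when dim probes were kept (limma adjusted p = 0.0534) and when A549 was kept out of the fit (limma adjusted p = 0.0647).

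Between A549 and PC14, 34.6% of all probes were called higher and 32.8% lower, and of the 11 probes 4 were called higher and 5 lower. RTEL1 was lower in A549 in all 4 transfections and fell by 1.44 ± 0.11 (SE, limma adjusted p = 8.39e-06) on the log2 scale, or 2.71-fold. TNFRSF6B probe 2 fell by 0.84 ± 0.18 (SE, limma adjusted p = 0.00344). Without the LNA-miR-197 arrays, 1 of which was not well above background, the log2 difference was -0.60 (limma adjusted p = 0.00849), and with normexp it was -0.19 (limma adjusted p = 0.0764). TNFRSF6B probe 1 had 0.23, in the other direction (limma adjusted p = 0.457), and 0.32 without the LNA-miR-197 arrays (limma adjusted p = 0.0368). The probes of TNFRSF6B thus differed in sign in this comparison.

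SLC2A4RG rose in A549 by 0.77 (limma adjusted p = 0.00112) and LIME1 by 0.50 (limma adjusted p = 0.00186), while STMN3 fell by 0.72 (limma adjusted p = 0.00634) and ZGPAT fell by 0.55 (limma adjusted p = 0.000398). Of the ARFRP1 probes, 1 and 3 rose by 0.50 and 0.51 (limma adjusted p = 0.00209 and 0.0374) and probe 4 fell by 0.51 (limma adjusted p = 0.00114). The call of ARFRP1 probe 3 was lost with quantile normalization (0.34, limma adjusted p = 0.168), with no filter on dim probes (0.51, limma adjusted p = 0.0610), without the LNA-miR-197 arrays (0.45, limma adjusted p = 0.138), without the pre-miR-197 arrays (0.38, limma adjusted p = 0.0662) and without the NC arrays (0.57, limma adjusted p = 0.0882). In order of the mean over the other 3 transfections, RTEL1 ran from A549, at 0.90 ± 0.25 (SD, n = 3), to PC14, at 2.23 ± 0.19 (SD, n = 3), and PC14CDDP, at 2.60 ± 0.18 (SD, n = 3). Slide and line cannot be told apart for A549 against PC14, since A549 has a slide of its own. For PC14CDDP against PC14, the row of the slide and the line cannot be told apart.

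Genes that act with the members were read from the same fits. Of 32 probes of 21 telomere and helicase genes, 0 were called after pre-miR-197. Between PC14CDDP and PC14, 11 were called lower and 9 higher, beside 22.8% and 26.0% of all probes. Between A549 and PC14 the counts were 21 lower and 5 higher, beside 32.8% and 34.6%. STN1, a subunit of the complex that helps to fill in telomere ends, was lower than in PC14 on both of its probes in both lines, with log2 differences of -1.35 and -1.83 in PC14CDDP and -2.52 and -1.38 in A549. TERT, the catalytic subunit of telomerase, was lower in A549, by a log2 difference of -1.18, as was TERF2IP, a protein bound to telomeres, by -1.21. TERF1, which binds telomere repeats, was lower in PC14CDDP on each of 6 probes, with differences of -0.48 to -1.24. The line differences named for these lists were called by limma at an adjusted p under 0.05 unless noted, and the bounds below are given with no test. After LNA-miR-197, 1 of the 32 probes (STN1) was at least 1.2-fold lower than both controls in all lines and 1 (TERF2) was higher, beside 3.93% and 4.40% of all probes. These counts are near those shares.

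Of the ligands of decoy receptor 3 and their receptors, 8 probes of 4 of the 7 genes were tested, none of them a ligand. After pre-miR-197, 0 were called, and 0 moved by 1.2-fold in all lines against both controls after LNA-miR-197, beside 3.93% lower and 4.40% higher of all probes. In A549 and PC14CDDP the 3 FAS probes were higher than both controls, by log2 ratios of 0.55 to 1.43, with -0.20 to 0.40 in PC14. The brighter TNFRSF25 probe had -0.35, -0.36 and -0.95 to LNA-miR-NC in A549, PC14 and PC14CDDP, and 0.10, 0.04 and -0.65 to NC. FAS, the death receptor, rose in A549 over PC14 on 3 probes by log2 differences of 3.62 to 3.93, and TNFRSF14, a receptor of TNFSF14, by 1.24 on 1 of its 2 probes, while the other had -0.93 (limma adjusted p = 0.0800). TNFRSF25, the receptor of TNFSF15, was lower in A549, by -1.68 on its brighter probe. LTBR, the lymphotoxin beta receptor, was at least 263-fold higher in A549 than in PC14. Its probe was well above background on 4 arrays of A549 and 0 of PC14 and PC14CDDP. It thus passed the filter through A549 alone, and this bound is given with no test. Among 25 probes of 15 genes that are partners or relatives of the other members, 0 were called after pre-miR-197. In PC14CDDP 5 were lower and 16 higher, beside 22.8% and 26.0% of all probes tested. In A549 7 were lower and 10 higher, beside 32.8% and 34.6%. After LNA-miR-197, 3 of the 25 were at least 1.2-fold lower than both controls in all lines and 3 were higher, beside 3.93% and 4.40%. The transporter gene SLC2A4, which SLC2A4RG regulates, was at least 4.12-fold lower in PC14CDDP than in PC14. Its probe was well above background on 4 arrays of PC14, 2 of A549 and 0 of PC14CDDP. Without PC14 it would not have passed the filter, and this bound is given with no test. STMN1, a stathmin like STMN3, rose in PC14CDDP on 4 of 5 probes, by 0.47 to 1.95, where STMN3 fell. The probes of EGFR, which ZGPAT represses, differed between PC14CDDP and PC14. The 2 dimmer of its 3 probes were lower, by -1.95 and -0.78, while the brightest had 0.01 (limma adjusted p = 0.935). CSK, a kinase that shuts off LCK, rose in PC14CDDP by 1.22.

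With the mean of each line taken off, the RTEL1 probe had a Pearson's r over the 12 arrays of 0.96 with TNFRSF6B probe 2 and 0.81 with TNFRSF6B probe 1, and the TNFRSF6B probes had 0.81 with each other. Against RTEL1, ZGPAT had -0.73, SLC2A4RG 0.66, STMN3 -0.38 and the ARFRP1 probes 0.04 to 0.64. The 12 points share 3 lines and 4 transfections, and these values restate the LNA-miR-197 arrays that chose the genes. Over the other 9 arrays, RTEL1 had an r of -0.34 with TNFRSF6B probe 2 and 0.04 with TNFRSF6B probe 1, and the TNFRSF6B probes had 0.68 with each other. In the same 9 arrays ZGPAT had 0.74 with RTEL1 and SLC2A4RG -0.45, both with the sign turned. Of the other genes on the array, those most like RTEL1 were LHPP (0.99), SOS1 (0.98), CELF6 (0.98), ZMYM4 (0.97) and CHCHD6 (0.97). Those most like TNFRSF6B probe 2 were NBAS (0.98), PRKCA (0.98), SLC25A21 (0.97), IMMP2L (0.97) and PPP1R9A (0.97). These 10 were likewise picked with the LNA-miR-197 arrays, and over the other 9 arrays their r was 0.11 to 0.86 with RTEL1 and 0.41 to 0.94 with TNFRSF6B probe 2. All 10 lie on other chromosomes, and their log2 ratios of LNA-miR-197 to LNA-miR-NC were smaller than those of RTEL1 in every line, for example -1.26, -0.93 and -1.35 for LHPP and -1.63, -1.16 and -1.69 for IMMP2L. In RefSeq these 10 genes span 35.4 to 900 kb with a median of 323 kb, beside a median of 25.2 kb over 16796 tested genes with a RefSeq span. RTEL1 itself spans 38444 bases and TNFRSF6B 2033 bases, and a link to gene length was not tested.

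The 250 bases before the start of RTEL1 and of TNFRSF6B, which had low values together, are given from RefSeq on the plus strand of GRCh38.p14 with every CG in capitals. They lie at chr20:63657560-63657809 and chr20:63696402-63696651.
RTEL1: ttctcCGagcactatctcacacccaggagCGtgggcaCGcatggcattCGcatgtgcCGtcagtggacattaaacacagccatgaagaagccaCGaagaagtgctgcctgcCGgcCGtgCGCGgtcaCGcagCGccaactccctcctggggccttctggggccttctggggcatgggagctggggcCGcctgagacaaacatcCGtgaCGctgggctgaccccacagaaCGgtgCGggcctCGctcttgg
TNFRSF6B: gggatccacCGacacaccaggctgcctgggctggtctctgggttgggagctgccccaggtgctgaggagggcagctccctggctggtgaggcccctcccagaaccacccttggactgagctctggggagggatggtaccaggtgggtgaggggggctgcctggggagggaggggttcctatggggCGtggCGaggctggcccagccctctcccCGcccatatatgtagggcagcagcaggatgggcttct
RTEL1 held 18 CG in this window and TNFRSF6B 4, where the median of 35116 upstream windows of this length is 11. A 2nd start of RTEL1, with its window at chr20:63658062-63658311, held 20. On either strand, the letters GGGCGG, the core bound by Sp1, occurred 0 times in the first RTEL1 window and 1 time in that of TNFRSF6B, and in 42.6% of all windows. TATAAA, in 10.72% of all windows, and TTCNNNGAA, the motif of STAT factors, in 6.57%, occurred 0 times in both.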

How the data were processed

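The members and the gene lists were chosen with earlier results of these data known. The authors scanned single-colour (Cy3) Agilent arrays with Feature Extraction 10.7.3.1 and deposited, for every spot, intensity values (mean, local background and processed signal) with flags, on hg19 coordinates. They also deposited a table of processed values, which equals the processed signal on 755712 of 755712 spots. Normalization between arrays is not given in the sources used here. 0 columns belonged to other samples.

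From these, control spots and outlier spots were left out, spots of a probe were averaged, and each level is log2 of the processed signal less log2 of the array's 75th percentile (406 to 477 signal units). Spots of 902 repeated probes had a median SD of 0.0712 to 0.0797 (log2) per array. Probes missing on any array (106) and those well above background on fewer than 3 of 12 arrays were left out. The number of arrays limits the precision. Names came from the files, and RefSeq accessions (GRCh38.p14) matched 28174 of 50599 probes (55.7%). limma 3.58.1 (R 4.3.3) was fitted to each probe with transfection and line as terms over all 12 arrays, with Benjamini-Hochberg adjustment over 33714 probes. The line pairs the arrays: deviations from the transfection means correlated with r of 0.929 to 0.947 in A549, 0.879 to 0.903 in PC14 and 0.845 to 0.897 in PC14CDDP. A bound ("at least") uses, on each array, whichever is higher, the level of the dim probe or the lowest level well above background. Folds are differences of log2 levels.

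Named genes are all member probes, the 5 genes of highest Pearson's r with RTEL1 and with TNFRSF6B, of the flanking genes the nearest on each side and those at 1.2-fold against both controls, and of the other lists up to 4 called genes by size of difference. STN1 and TERF2 also stand as counts of 1, COL20A1 was named after its values were seen, and list genes not on the array as tested probes are not reported. Alternatives were quantile normalization, normexp, the deposited table, the filter, a gene's mean, the terms and arrays of the fit, eBayes with trend and robust prior, and the methods' t-test. Tables and plots were made with pandas 2.3.3, matplotlib 3.10.9 and numpy 2.4.6 (Python 3.11.15). The miRNA arrays and other assays of the study were not analysed here.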

Additional observations from a re-analysis of the deposited data

Results flagged for a closer look

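Of 33 groups of 4 arrays (11 probes in 3 lines), 4 held an array far from the others, and all 4 were in PC14CDDP. The 4 arrays of a group are different transfections and the probes share arrays, so this count was not set against chance. The LNA-miR-197 array stood apart on the RTEL1 probe, at a log2 level of 0.41 with the nearest array at 2.47, on TNFRSF6B probe 1, at -4.69 with the nearest at -3.02, and on TNFRSF6B probe 2, at -3.01 with the nearest at -1.11. These are the values that chose the genes. The pre-miR-197 array stood apart on the STMN3 probe, at -2.18 with the nearest at -1.25.

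Opposite directions in A549 and PC14, by at least 1.2-fold each way, were seen on 2 probes. ARFRP1 probe 3 had a log2 ratio of LNA-miR-197 to LNA-miR-NC of 0.28 in A549 and -0.33 in PC14, 0.61 apart. STMN3 had a log2 ratio of LNA-miR-197 to NC of 0.56 in A549 and -0.39 in PC14, 0.95 apart. With 1 array a line the difference between lines was not tested.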

How the results depend on the processing

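Across all alternatives, 0 member probes were called after pre-miR-197 (member counts also 0 by the methods' t-test with and without adjustment), while calls over all probes went from 20 to 3 without the filter, 36 genes by a gene's mean, 74 with quantile normalization, 558 with the filter on all 12 arrays, 585 with trend and robust prior and 640 with normexp, and to 0 with no replicate block, the slide as block, only the arrays of the comparison, the methods' t-test or any line left out. In the line comparisons the pairing by transfection is the block: with no replicate block the member calls went from 7 to 4 for PC14CDDP and from 9 to 6 for A549, against PC14. Losing their calls there were RTEL1 in A549 (limma adjusted p = 0.0932), SLC2A4RG in PC14CDDP (0.294) and A549 (0.0573), TNFRSF6B probe 2 in PC14CDDP (0.183) and A549 (0.294) and ARFRP1 probe 4 in PC14CDDP (0.0962). By a gene's mean, 5 genes were called for A549. With the filter on all 12 arrays, which leaves out both TNFRSF6B probes, 1 probe in place of 3 was 1.2-fold away from LNA-miR-NC in all lines and 3 in place of 5 from NC. With quantile normalization 1 in place of 2 differed between LNA-miR-NC and NC. Leaving out 1 line or transfection gave 0 to 0 for pre-miR-197, 5 to 8 for PC14CDDP, 8 to 9 for A549, 3 to 5 (5 without A549) and 5 to 5 for LNA-miR-197 against LNA-miR-NC and NC, and 2 to 3 for LNA-miR-NC against NC.

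In the tested comparisons, signs turned on values near 0, none of them called: with quantile normalization for ZGPAT after pre-miR-197 (-0.036) and for TNFRSF6B probe 1 between A549 and PC14 (-0.027), and with 1 line or transfection left out for ZGPAT (-0.052 to 0.042, lowest without A549) and TNFRSF6B probe 1 (-0.14 to 0.037, highest without A549) after pre-miR-197, ARFRP1 probe 3 between PC14CDDP and PC14 (-0.027 to 0.18, lowest without LNA-miR-197) and ARFRP1 probe 2 between A549 and PC14 (-0.018 to 0.10, lowest without pre-miR-197). Mean log2 ratios with no test also changed sign with 1 line left out: LNA-miR-197 to LNA-miR-NC for STMN3 (-0.13 to 0.26, lowest without A549) and ARFRP1 probe 3 (-0.26 to 0.047, lowest without A549), LNA-miR-197 to NC for STMN3 (-0.20 to 0.28, lowest without A549) and ARFRP1 probe 1 (-0.055 to 0.050), and LNA-miR-NC to NC for STMN3 (-0.13 to 0.020), TNFRSF6B probe 1 (-0.017 to 0.16) and TNFRSF6B probe 2 (-0.13 to 0.083). With normexp, TNFRSF6B probe 2 lost its call between A549 and PC14 (-0.19, limma adjusted p = 0.0764). The cause of these shifts was not tested. The deposited table gave the same values as the scanner output. TNFRSF6B lies close to background, so the size of its ratios is less certain than that of RTEL1.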
